A study of Homo sapiens with 6 samples.

Results

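Of the 17009 regions of open chromatin that were called as ATAC-seq peaks in all 6 libraries of the series, 601 ranked higher in each NuMA-depleted library than in each wild-type library. The cells were HCT116, an established human colon cancer line, with 3 libraries labelled NuMA depletion in both genotype and treatment and 3 labelled wild type in both. The sample titles carry the letters AID for the depleted and NC for the wild-type libraries and do not spell them out. The labels used here do not say how NuMA was depleted or for how long, whether the depleted cells were 1 clone, or whether replicates came from separate cultures. A region is a stretch in which peaks of the 6 lists overlap by at least 1 bp. Its level in a library is the highest fold enrichment over local background among its peaks there, written as a percentile among the 17009 shared regions, so that 100 is the strongest region of that library. The 601 are the regions whose lowest percentile in the 3 NuMA-depleted libraries exceeded the highest in the 3 wild-type libraries by 5 points or more, a distance called the gap below. They made up 3.53% of the shared regions. Since these percentiles chose the regions, the difference between the groups at them is a description and was not tested.

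NuMA is a large coiled-coil protein that organises the spindle poles in mitosis and belongs to the nucleoskeleton in interphase, when the nucleus is intact. The series asks whether it keeps local chromatin compact through the linker histone H1, which binds where DNA enters and leaves the nucleosome and helps nucleosomes stack. ATAC-seq reads openness as the number of DNA fragments that a transposase releases at a site: a stretch free of nucleosomes, as at promoters and enhancers, is cut often, and a compact stretch seldom. A percentile within a library shows only the order of its regions. A change of openness shared by all regions would leave it as it was.

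The lists held 21783 to 45892 peaks, the fewest in NuMA-depleted replicate 3. Depth was estimated from the smallest local background of each list and is given relative to the mean over libraries. It was 1.07, 1.21 and 1.11 in NuMA-depleted replicates 1, 2 and 3 and 0.975, 0.869 and 0.762 in the wild-type replicates. By this estimate, depth and group cannot be told apart. Over the shared regions, Spearman's rho of the folds was 0.730 between NuMA-depleted replicates 1 and 2, 0.698 to 0.722 among the wild-type libraries and 0.675 to 0.696 between these 2 depleted and the wild-type libraries. NuMA-depleted replicate 3 stood apart from both groups, with 0.622 and 0.648 to its own group and 0.611 to 0.629 to the wild-type libraries. These coefficients are over regions that share a library and its depth.

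At the 601 regions the median percentile was 64.3, 64.0 and 65.8 in NuMA-depleted replicates 1, 2 and 3 and 30.1, 29.4 and 28.5 in wild-type replicates 1, 2 and 3. Among the shared regions they thus lay in the upper middle in the depleted libraries and in the lower middle in the wild-type libraries. NuMA-depleted replicate 3 ranked them like the other two, but the rule favours this, as it asks for a higher rank in each depleted library. The gap itself had a median of 10.5 points and reached 62.4, and it was under 10 points in 274 of the 601 (45.6%). Within a group the 3 percentiles of a region spanned a median of 16.1 points in the depleted and 14.6 in the wild-type libraries, against 24.9 and 22.5 over all shared regions. A low spread within groups follows from the rule.

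**Figure D1:**
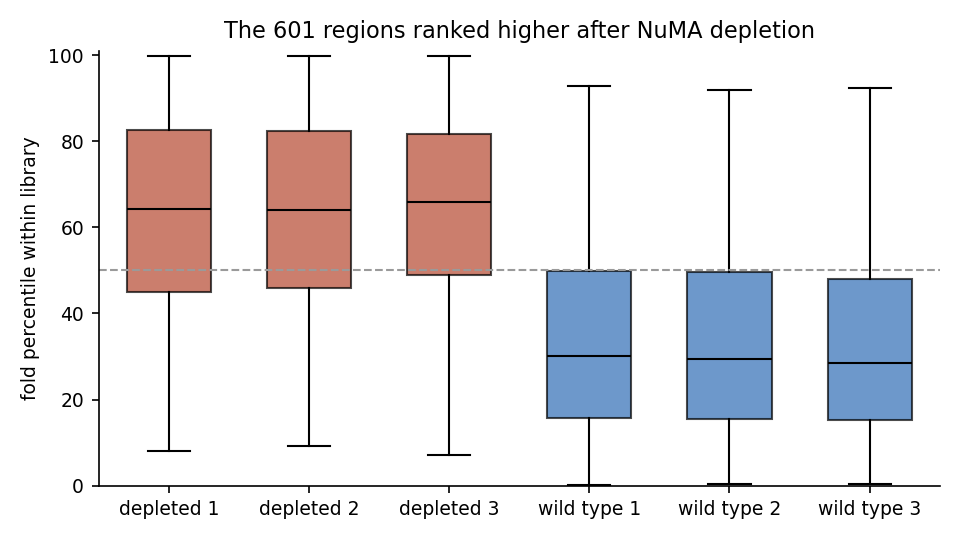
Fold percentile within each library (vertical axis, in percent) of the 601 regions; boxes span the quartiles with the median as a line, whiskers reach the lowest and highest region, and the dashed line marks the 50th percentile. Medians lie between 64.0 and 65.8 in the 3 NuMA-depleted and between 28.5 and 30.1 in the 3 wild-type libraries, and the ranges of both groups are wide because each region is compared with itself.

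The deposited folds of these regions were modest. Their medians were 9.06, 8.86 and 7.19 in NuMA-depleted replicates 1, 2 and 3 and 6.60, 7.50 and 6.73 in wild-type replicates 1, 2 and 3. NuMA-depleted replicate 3 had lower folds over all shared regions too, with a median of 6.43 against 7.65 to 8.76 in the other 5 libraries. As deposited, before ranking, folds of the 2 groups did not overlap in 171 of the 601 (28.5%), and in 300 of all shared regions (1.76%). After each library was centred on its median log2 fold, the 601 were higher in the depleted libraries by a median of 0.35 on the log2 scale (quartiles 0.28 and 0.45), about 1.28-fold.

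The fold is a ratio of the fragments stacked at the summit, the pileup, to the local background, and both parts could be recovered as fragment numbers. At the 601 the median pileup was 37, 49 and 25 fragments in NuMA-depleted replicates 1, 2 and 3 and 22, 24 and 20 in wild-type replicates 1, 2 and 3. With each library scaled to its own median, pileup was higher in the depleted libraries at 50.3% of all shared regions and at 594 of the 601. The median log2 difference at the 601 was 0.45. The local background was higher at 397 of them (66.1%) and lower at the others, with a median log2 difference of 0.10 and quartiles of -0.06 and 0.34, while over all shared regions it was higher at 48.2%. Ranked by local background with the same 5-point gap, 87 of the 601 (14.5%) were higher in the depleted libraries, where 4.48% of all shared regions were, and 10 (1.66%) were lower, where 3.15% were. Ranked by pileup, 315 of the 601 (52.4%) were higher, where 4.5% of all were, and 0 were lower, where 3.65% of all were. As fold, pileup and background come from the same peaks, these shares are not independent of how the regions were chosen.

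Peak width, which the rule did not use but which comes from the same peaks, moved less. By its percentile with a 5-point gap, 36 of the 601 (5.99%) were wider in the depleted libraries, where 2.95% of all shared regions were, and 16 (2.66%) were narrower, where 2.93% were. Their median log2 difference in width was 0.08.

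The largest gap belonged to a region of chromosome 2, at 239552636 to 239553395 in build hg19, which all positions here use. Its percentile was 88.1, 91.8 and 87.2 in NuMA-depleted replicates 1, 2 and 3, and 7.45, 24.8 and 18.9 in wild-type replicates 1, 2 and 3. It was thus among the stronger shared regions in every depleted list and low in every wild-type list. The folds behind these ranks were 10.8, 10.9 and 8.66 against 5.00, 7.20 and 6.12. The pileups were 39, 48 and 22 against 12, 15 and 12 fragments. Counting error alone is wide at such numbers: the 22 fragments have an exact Poisson 95% interval of 13.8 to 33.3, and the 15 fragments one of 8.40 to 24.7, so these 2 libraries overlap.

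A region on chromosome 6, at 136965369 to 136965902, followed with a gap of 50.1 points and with percentiles of 94.5, 92.3 and 93.2 in the depleted and 38.9, 42.1 and 33.7 in the wild-type libraries. Here the 3 replicates lay within 2.22 points of each other in the depleted group and within 8.38 in the wild-type group. Pileups were 25, 40 and 23 against 16, 17 and 16 fragments. A narrow region on chromosome 9, at 127155047 to 127155560, had percentiles of 74.1, 66.9 and 68.9 against 20.6, 21.4 and 18.9. On chromosome 7, at 6424654 to 6425644, the percentiles were 47.9, 45.6 and 44.9 against 5.64, 2.92 and 7.96. A region among the weakest shared regions of the wild-type libraries thus stood only near the middle of the shared regions after depletion.

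At several of these regions the background was higher along with the pileup. On chromosome 11, at 15074545 to 15075342, pileups were 38, 64 and 29 fragments in the depleted and 14, 14 and 7 in the wild-type libraries. Its local background was 2.87, 5.63 and 2.85 against 1.27, 1.13 and 0.867 fragments. How far the peak itself enters this background is not known, as the caller's settings are not given. The percentiles of the region's fold were 80.3, 79.6 and 76.0 against 30.1, 22.6 and 2.22. On chromosome 14, at 71838347 to 71839366, the wild-type libraries had 8, 11 and 9 fragments over a background of 0.897, 0.748 and 0.767, the smallest background found in each of those lists. The depleted libraries had 32, 44 and 18 fragments there, over 2.13, 3.01 and 1.73. Its percentiles spread more within the depleted group, with 85.6, 93.9 and 61.0 against 5.34, 20.05 and 12.95. All of these background values are in fragments of libraries of unlike depth.

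Chromosome 6 held another, at 143718294 to 143719085, with percentiles of 95.2, 86.4 and 82.5 against 21.97, 36.9 and 32.6. Chromosome 2 held 2 more of the 15 largest gaps. At 46451974 to 46452611 the percentiles were 85.7, 76.5 and 82.6 against 34.4, 6.90 and 12.95, and at 128265809 to 128266640 they were 94.3, 81.9 and 94.5 against 32.5, 30.5 and 43.6. In the first of these the wild-type libraries spanned 27.5 points among themselves, as wild-type replicate 1 ranked it well above the other two.

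Chromosome 17 held 2 of the 15. At 62172678 to 62173413 the percentiles were 71.0, 83.5 and 58.3 against 5.82, 13.3 and 8.13. At 76857924 to 76858710 they were 74.7, 97.0 and 78.2 against 22.7, 37.1 and 34.0. The latter had the highest pileups of the 15, with 54, 92 and 38 fragments against 26, 32 and 24, and it was the 1 region of the 15 whose deposited folds overlapped between the groups, where NuMA-depleted replicate 3 had 7.93 against 8.001 in wild-type replicate 2.

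The other 4 were spread over 3 chromosomes. The first (chr3:99721177-99722177) was the widest of them, and the second (chr20:861806-862610) lay near the start of its chromosome. The last 2 (chr9:19161649-19162365 and chr9:137494307-137495015) lay far apart. Their gaps were 44.1, 36.5, 36.1 and 35.8 points. On chromosome 3 the depleted libraries differed most among themselves, with percentiles of 96.2, 84.6 and 69.4, while the wild-type libraries had 20.1, 25.3 and 20.8. All 15 had 1 peak in each library, and in all 15 the pileups did not overlap between the groups, with 18 to 92 fragments in the depleted and 7 to 32 in the wild-type libraries. Over all shared regions the median pileup was 33, 45 and 22 fragments in NuMA-depleted replicates 1, 2 and 3. It was 27, 31 and 27 in wild-type replicates 1, 2 and 3. By this measure NuMA-depleted replicate 3 was the lowest, although its depth as estimated above was higher than in the wild-type libraries. The fragments are unscaled, and pileup is part of the fold that chose these regions. The separation of the pileups therefore does not stand on its own, and its share over all shared regions is not given here.

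**Figure D2:**
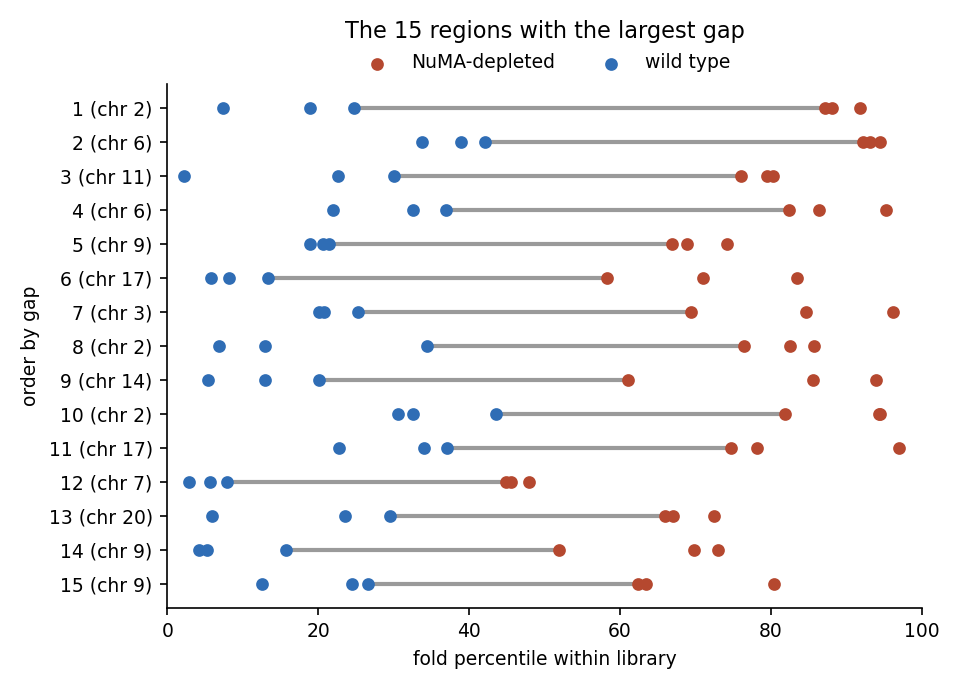
Fold percentile within each library (horizontal axis, in percent) of the 15 regions with the largest gap, ordered from the largest down and named by chromosome; each point is 1 library and the grey line is the gap. Gaps run from 35.8 to 62.4 points, and the 3 depleted libraries lie right of the 3 wild-type libraries in every row because the regions were chosen for it.

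Few of the regions ranked higher were among the strongest shared regions. The 5 with the highest mean fold had gaps of 5.50 to 10.2 points, as there is little room above them. The first was on chromosome 5 at 177366275 to 177366694, with folds of 13.5, 14.0 and 12.4 in the depleted and 8.96, 12.2 and 9.995 in the wild-type libraries. Its percentiles were 99.2, 99.7 and 99.8 against 73.0, 91.9 and 85.5, so that it moved from a strong region to 1 of the strongest. The others were chr6:86369775-86370325, chrX:15353282-15353991, chr17:45569597-45570327 and chr19:42891074-42891744. Over these 5 the wild-type percentiles ran from 72.5 to 92.8.

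Members just inside and regions just outside the 5-point limit differed little in gap but more in other values. Just inside, the mean percentiles of the 2 groups differed by 12.1, 17.0 and 28.2 points, in the order named below. Just outside, they differed by 33.3, 20.1 and 23.5 points. Just inside it were chr8:18671752-18672340, chr19:5790611-5791347 and chr1:151128616-151129107, with gaps of 5.00, 5.01 and 5.02 points. On chromosome 8 the percentiles were 21.97, 29.9 and 17.4 against 12.4, 12.0 and 8.40, over pileups of 9 to 24 fragments. Just outside were chr22:37359169-37360599, chr5:157170186-157170790 and chr9:110036907-110037656, with gaps of 4.94, 4.93 and 4.92 points. On chromosome 22 the percentiles were 33.5, 77.3 and 59.1 against 23.1, 18.4 and 28.6. With no limit on the gap, 1148 regions (6.75% of the shared regions) ranked higher in all depleted than in all wild-type libraries, and 1056 (6.21%) ranked lower.

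The same rule was applied to every set of 3 libraries, as the choice of these regions asks. The 3 NuMA-depleted libraries gave 601 regions and the 3 wild-type libraries 542 (3.19%), which are the shared regions ranked lower after depletion. The 18 sets that mix the groups gave 321 to 475, with a median of 367. Both groups therefore had more such regions than each mixed set, but no mixed set gave fewer than 321. The highest mixed count came from wild-type replicates 1 and 2 together with NuMA-depleted replicate 3. With a gap of at least 20 points the depleted set had 97, the wild-type set 83 and the mixed sets 24 to 59, and with at least 30 points 32, 29 and 2 to 13. The 20 sets share libraries, and the 3 depleted libraries also share a higher estimated depth.

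**Figure D3:**
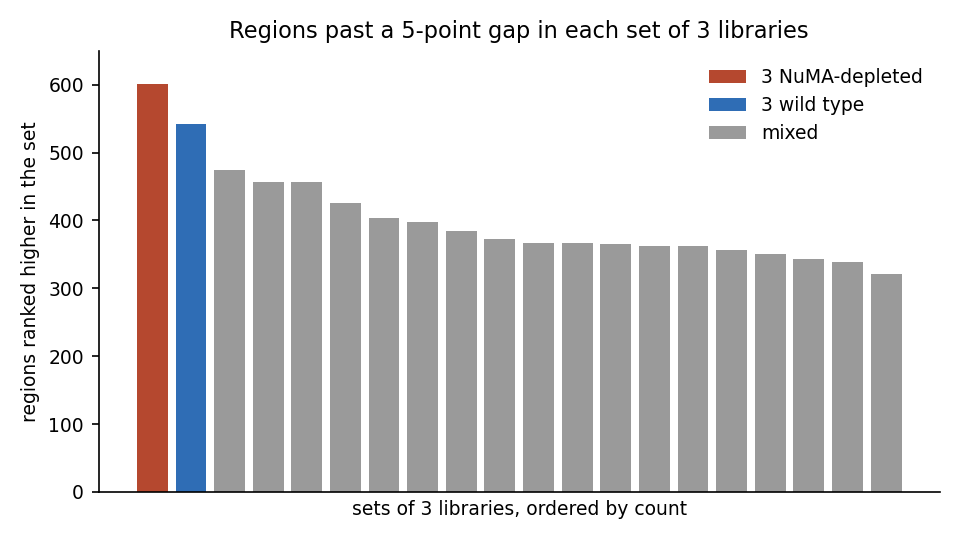
Number of shared regions ranked higher by 5 points or more (vertical axis) in each of the 20 sets of 3 libraries, ordered by count; the 3 NuMA-depleted libraries are in red, the 3 wild-type libraries in blue and the 18 mixed sets in grey. The depleted set has 601, the wild-type set 542 and the mixed sets 321 to 475.

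How far the difference repeats in libraries whose percentiles did not choose the regions was measured by holding out 1 depleted and 1 wild-type library. The other 4 libraries chose regions with the same 5-point gap, and the percentile in the held-out depleted library minus that in the held-out wild-type library was read at them. Over the 9 ways to hold out such a pair, 1826 to 2044 regions were chosen. They are a wider set than the 601, and each still needed a peak in every library, the held-out pair included. In the libraries that chose them the depleted percentile was higher by a median of 24.96 to 25.99 points. In the held-out pair it was higher by a median of 2.66 to 5.71 points, against -0.39 to 0.52 over all shared regions. Between 54.6% and 61.4% of the chosen regions were higher in the held-out depleted library, against 48.9% to 51.4% of all shared regions. The direction thus repeated in all 9 held-out pairs, at a small part of the size seen where regions were chosen. The lowest of the 9 was the held-out pair numbered 3 in both groups.

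Regions chosen by a wider gap repeated more. With at least 30 points in the 4 choosing libraries, 157 to 204 regions were chosen, and the held-out difference was a median of 6.39 to 15.1 points, with 59.8% to 73.1% of them higher in the held-out depleted library. Ranked by pileup instead of fold, with the 5-point gap, the held-out difference was a median of 7.21 to 8.82 points. Regions chosen as lower after depletion were lower in the held-out pairs by a median of 1.56 to 4.21 points. The 9 choices share libraries, and each held-out depleted library was deeper than its wild-type partner by the depth estimate, so no p is given. With only 5 libraries the median held-out difference over the 6 remaining choices was 1.11, 2.47 and 3.68 points when the 1st, 2nd or 3rd NuMA-depleted replicate was left out, and 2.34, 2.70 and 2.54 points when a wild-type replicate was, in the same order. The lowest single choice, without NuMA-depleted replicate 1, was 0.30 points.

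**Figure D4:**
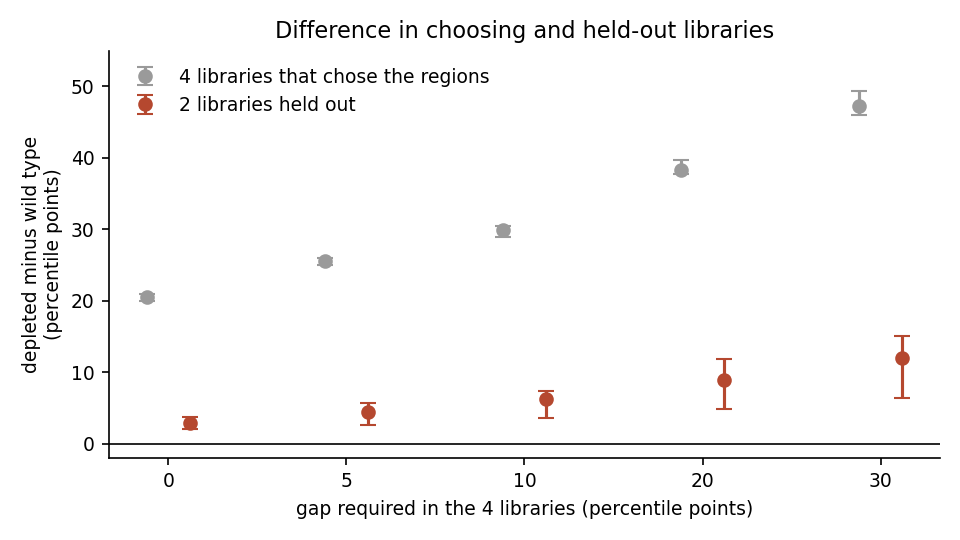
Median difference in fold percentile, NuMA-depleted minus wild type (vertical axis, in points), at regions chosen from 4 libraries with the gap on the horizontal axis (0 means that the groups did not overlap); points are the median and bars the range over the 9 choices of 2 held-out libraries. Held-out differences (red) rise from 2.82 points with no gap to 12.0 points with a gap of 30 and stay well under those of the choosing libraries (grey).

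In width and number of peaks, which the rule did not use, the 601 were close to the other shared regions. They had a median width of 881 bp, against 914 bp over all shared regions and 900 bp for the 542 ranked lower. Of the 601, 570 (94.8%) had 1 peak in each library, against 92.6% of all. With the shared regions split by width into 5 classes of equal number, 2.53% of the widest class, of 1223 to 3379 bp, belonged to the 601, against 3.47% to 4.06% of the other classes. Level is not independent of the rule, since it averages the same percentiles. With 10 classes of equal number by mean percentile over the 6 libraries, 1.24% of the weakest and 1.35% of the strongest class belonged to the 601. The share was highest, 5.47%, in class 4 from below. Percentiles have least room to move at both ends. The median of their mean percentile was 46.5, against 52.7 for the 542 ranked lower.

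Summits were placed less evenly at these regions. The strongest summits of the 6 libraries spanned a median of 187 bp, against 164 bp over all shared regions and 144 bp at the 542 ranked lower. They lay within 100 bp of each other at 23.6%, 29.2% and 33.0% of these 3 sets. No test was made of these differences.

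The regions were scattered over all 23 chromosomes in the lists. Their share of the shared regions ran from 1.96% on chromosome 15 (11 of 561) to 5.15% on chromosome 21 (10 of 194), with 4.84% on chromosome 16 (32 of 661). On 14 chromosomes more regions ranked higher than lower after depletion, and on 9 fewer. Chromosome 17 had 35 higher and 13 lower among 911, chromosome 19 had 29 and 15 among 804, and chromosome 11 had 33 and 19 among 948. In the opposite sense, chromosome 10 had 25 higher and 35 lower, chromosome 15 had 11 and 19 and chromosome 13 had 10 and 16. These chromosomes were picked after their values were seen, and no chromosome was tested.

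**Figure D5:**
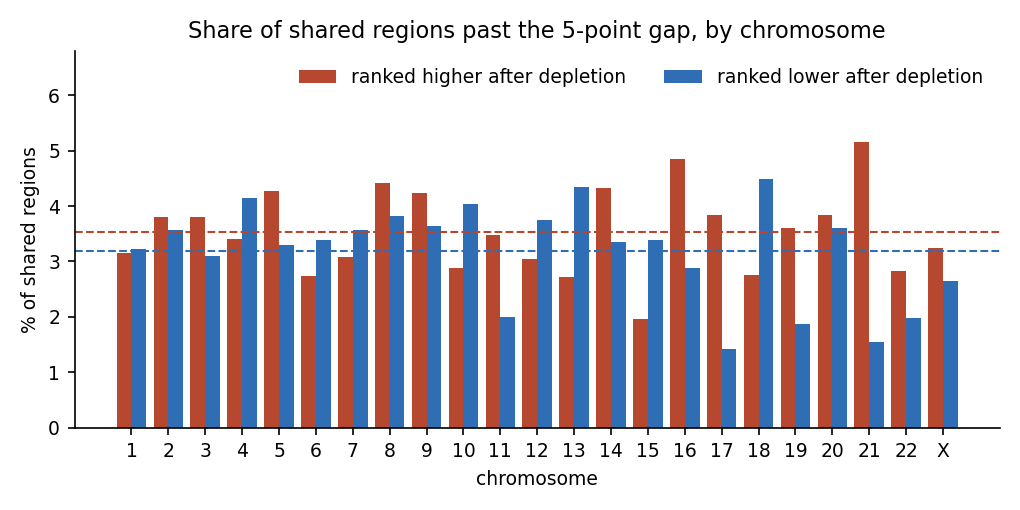
Percent of each chromosome's shared regions that ranked higher (red) or lower (blue) after NuMA depletion by 5 points or more; dashed lines give the percent over all chromosomes, 3.53% and 3.19%. The 2 directions are closest on chromosome 1 and farthest apart on chromosome 21, which holds 194 shared regions, 10 of them higher and 3 lower.

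The share of regions with another of the 601 nearby was about the same among the 601 as among all shared regions. Of the 601, 4 (0.666%) had another of the set within 10 kb, against 0.788% of all shared regions with 1 of the 601 that near. Within 100 kb the shares were 9.65% (58 of the 601) and 8.95%. Bins of 1 Mb held at most 5 of them, on chromosome 11 from 64 to 65 Mb, where 5 of 30 shared regions ranked higher and 0 lower. That bin was named after its value was seen. Of the 486 bins that held any, 395 held 1.

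Neighbours outside both sets were read as well. Of the 601, 121 had their nearest shared region within 10 kb, and in 113 cases that neighbour was in neither set. Those 113 neighbours were higher in the depleted libraries by a median of 4.06 points, and 74 of them (65.5%) were higher, against 52.0% of the like neighbours of all shared regions. For neighbours at 10 to 100 kb the median was 0.25 points, and 188 of 371 (50.7%) were higher. The like neighbours of all shared regions at that distance had a median of -0.09 points, and 49.5% were higher. Neighbours of the 542 regions ranked lower had a median of -1.86 points within 10 kb, with 26 of 69 (37.7%) higher, and of -1.23 points at 10 to 100 kb, with 140 of 321 (43.6%) higher. Neighbours are measured in the same 6 libraries and can share their local background, and their part in the result was not tested.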

How the data were processed

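ATAC-seq was done on 6 HCT116 libraries, 3 labelled NuMA depletion and 3 wild type, and 1 peak list per library was deposited. Per the submitters' processing notes, Trim Galore, Bowtie2 (version 2.4.1), Picard and build hg19 were used. The peak names record a macs2 folder, per the file headers. For the caller's version and settings, read filters, a shift of reads for the transposase or a screen for artefacts, nothing is given in the sources used here. The deposited lists give each peak's fold enrichment over local background (a linear ratio), its −log10 p and −log10 q, a score (10 times the −log10 q, as a whole number, not used) and its summit. The smallest −log10 q was 2.00. These values are the authors' and belong to their own list.

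From the lists, peaks that overlapped by 1 bp or more were joined into 58926 regions, and 17009 with a peak in every library were kept. Percentiles are average ranks divided by the number of kept regions. Depth in reads is unknown. The pileup k and background b of each peak were recovered from fold = (k + 1) / (b + 1) and the Poisson probability of more than k fragments. A whole k within 0.01 on the −log10 p scale was found for 100% of peaks in each library. Relative depth is the smallest background divided by the smallest peak width, which assumes that this width is the caller's fragment length. Poisson intervals cover counting error only, and fragments without molecular identifiers need not be independent. Simulated data were used to check the code. Those for the recovery came from the formula that it inverts. Those for the rule were Poisson pileups, with some regions raised by more than the median difference seen at the regions ranked higher. They do not show how the rule performs on the folds of these libraries. Python 3.11.15, numpy 2.4.6, pandas 2.3.3 and scipy 1.17.1 were used.

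No test was run: the rule used the contrast between the groups, and with 3 libraries against 3 an exact test cannot go below 0.10. The regions, lists and alternatives were chosen with earlier results of these data known. Named regions are the 15 with the largest gap, the 5 with the highest mean fold and the 3 on each side of the limit. Genes, GC content, sequence and motifs at the regions, and cell type markers, were not analysed here, as no genome or annotation of build hg19 was used.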

Additional observations from a re-analysis of the deposited data

How the results depend on the processing

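The 601 regions ranked higher and 542 ranked lower became 1148 and 1056 with no gap. A gap of 10 points gave 327 and 301, and a gap of 0.14 in centred log2 fold gave 307 and 234. Cutting every list to an equal number, its 21783 strongest peaks, gave 397 and 387. The shared set then fell from 17009 to 11798. As shares of it, 397 and 387 were 3.36% and 3.28%, against 3.53% and 3.19% for the 601 and 542. The shares thus changed little while the counts fell. Of the 601, 348 were found again at equal numbers. The remaining alternatives, with one chosen after seeing the data (pileup over background without a pseudocount), gave 521 to 766 higher and 479 to 621 lower. Different regions entered them: by −log10 q 427 of the 601 were found again, by pileup 315, by pileup over background 395, and by all 3 of these 180, among them 13 of the 15 with the largest gap. In every level tried for sets of 3 libraries (−log10 q, pileup, pileup over background, classes of width, peaks past a −log10 q of 5, equal numbers) both groups had more regions than each of the 18 mixed sets. At equal numbers these were 397 and 387 against at most 349, and past a −log10 q of 5 they were 521 and 479 against at most 434.

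Leaving out each library gave 1144 to 1582 higher and 1106 to 1494 lower regions, as fewer libraries must then separate. These were 6.52% to 7.15% and 6.38% to 6.75% of the regions then shared. Most came without NuMA-depleted replicate 3, when 22132 regions were shared and the shares were 7.15% and 6.75%. Without NuMA-depleted replicate 2 the shares were close to these, at 7.10% and 6.56%. The replicate block, a rise or fall of 5 points in each same-numbered pair, gave 1354 and 1350. It needs only 3 of the 9 comparisons between libraries. Deviations of same-numbered libraries from their group means correlated at -0.027, -0.019 and -0.019 over regions, and no library correlated best with its own number. Deviations within a group are tied to each other, so these values cannot settle whether same-numbered libraries were paired. The labels used here do not say whether they shared a culture, and pairing was not tested.

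The held-out difference, a median of 4.39 points over the 9 choices, was 2.82 with no gap, 6.20 with a gap of 10, 8.93 and 12.0 with gaps of 20 and 30 (both added after seeing the data), 6.56 by −log10 p, 8.18 by pileup and, with 1 library left out, 1.11 to 3.68. In the replicate block, over 3 same-numbered pairs, it was 3.85. No alternative reversed it. Comparisons by GC content, start sites and motifs were not run. Depth limits what single regions show: the pileup was as low as 6 fragments in a wild-type library among the 601.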
